A study of Mus musculus with 31 samples.

Results

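The arrays described here are the 3 of 31 distal colon arrays with by far the highest signal of S100a8, one chain of calprotectin, the calcium- and zinc-binding protein that fills the neutrophil cytosol. They were chosen by that measured signal and not by treatment. An array belonged to the set when its S100a8 value, taken as log2 processed signal minus the 75th percentile of the array and minus the mean of the probe over all 31 arrays, was above 5. The 3 arrays were CRC 7 days male 1 at 9.25, CRC 7 days male 2 at 7.92 and CRC + E171 14 days male 2 at 6.76. The nearest arrays outside the threshold were CRC 14 days male 1 at 3.54, CRC + E171 7 days male 2 at 3.24 and CRC + E171 21 days female 1 at 3.0. Values for the 3 selected arrays are given in the order above throughout, and the remaining 28 arrays are called the other arrays.

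The 31 mice analysed were BALB/c, 4 to 6 weeks old at the start, and carried a chemically induced model of colorectal cancer. Every mouse had received 1 intraperitoneal injection of azoxymethane, a carcinogen that methylates DNA, 1 week before, and then 2% dextran sodium sulphate, an irritant that injures the colonic epithelium, in the drinking water during the first 5 days of the experiment, so that mice taken at 2 days had not had the whole course. CRC mice were gavaged with water, and CRC + E171 mice with 5 mg/kg of E171, the food-grade titanium dioxide, on 5 days a week. Distal colon was taken after 2, 7, 14 or 21 days from 2 males and 2 females per treatment and day, and RNA of each mouse was hybridised to 1 one-colour Agilent array. The CRC 21 days group is analysed here with 3 arrays. There was no group without the carcinogen and the irritant, so the other arrays are not untreated colon. Each array is a separate mouse, and the RNA is that of whole distal colon tissue rather than of sorted cells.

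Acute colitis after dextran sodium sulphate begins with loss of surface epithelium. Injured epithelium, stromal cells and resident macrophages then release chemokines that bind Cxcr2 and draw neutrophils out of the blood through activated venules, and neutrophils in turn release granule enzymes, calprotectin and interleukin-1. Repair follows from the crypt base and the matrix beneath it. Because one RNA extract holds all cell types of the tissue, fewer cells of a type and less RNA per cell cannot be told apart in any value below.

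The array reads each transcript through 60-base probes. The probe that chose the arrays is shown with those of the second marker Lcn2, of Saa3 and of Mptx1, an acute-phase and an epithelial gene described below, with the mm9 position in the header of the array files and 5′ to 3′. The S100a8 probe lies on chr3:90473778-90473837 (plus strand) and starts at base 213 of its transcript. The Lcn2 probe lies on chr2:32241037-32241281 (minus strand) and spans an intron, the Saa3 probe on chr7:53967559-53967618 (minus strand), and the Mptx1 probe on chr1:176262532-176262591 (plus strand).
S100a8: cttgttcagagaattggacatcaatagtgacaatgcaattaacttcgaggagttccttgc
Lcn2: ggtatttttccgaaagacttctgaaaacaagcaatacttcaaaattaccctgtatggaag
Saa3: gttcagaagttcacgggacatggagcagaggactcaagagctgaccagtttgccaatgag
Mptx1: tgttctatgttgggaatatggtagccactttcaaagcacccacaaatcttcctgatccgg

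The selected arrays did not come from 1 treatment, day or slide. They lay on slides 1, 5 and 6 and were scanned on 2 different scan days. By day, 0 of 8, 2 of 8, 1 of 8 and 0 of 7 arrays were selected at 2, 7, 14 and 21 days (two-sided Fisher's exact test, p = 0.587). By treatment, 2 of 15 CRC and 1 of 16 CRC + E171 arrays were selected (exact p = 0.60), and by labelled sex 3 of 15 male and 0 of 16 female arrays (exact p = 0.101). After Benjamini-Hochberg adjustment over these 3 tests the exact p values were 0.60, 0.60 and 0.304. With 3 selected arrays the smallest exact p possible for treatment or sex is 0.101, so these tests could not pass 0.05 and the counts are a description. The labelled sex was kept throughout, although CRC 14 days male 2 had an Xist level of -1.60, within the -2.34 to -0.70 of the arrays labelled female. The share of probes well above background was 71.2%, 74.3% and 71.8% on the selected arrays and 67.4% to 78.9% over all 31.

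Before the results, 3 groups of transcripts foreign to colonic mucosa have to be set out, because the selected arrays carried them unequally. Squamous epithelium genes such as Krt5, Krt14 and Krt13, keratins of stratified epithelium, were high on CRC 7 days male 1 and CRC + E171 14 days male 2 but not on CRC 7 days male 2. The median of 10 squamous genes, centred on the mean of all arrays, was 7.25, -0.83 and 5.90. Skeletal muscle fibre genes had medians of 7.37, -0.45 and 0.29, and all 12 of them were above every other array on CRC 7 days male 1 and none on the remaining pair. Pancreatic acinar genes, which encode digestive enzymes, had medians of -1.10, 8.25 and -1.06. Other arrays carried such transcripts as well. The squamous median reached 6.34 on CRC 21 days female 1 and 3.29 on CRC + E171 21 days female 1, and the acinar median 10.42 on CRC + E171 21 days female 2, 10.25 on CRC + E171 2 days female 2 and 7.39 on CRC 7 days female 1. The skeletal muscle median was at most 2.14 on the other arrays. On the 5 squamous or acinar arrays named here the S100a8 level was between -5.20 and 0.60, against 4.36 to 6.84 on the selected arrays. The part of foreign tissue in any value below was not tested, and CRC 7 days male 2 gives each value without high squamous or muscle transcripts but with acinar ones.

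**Figure D1:**
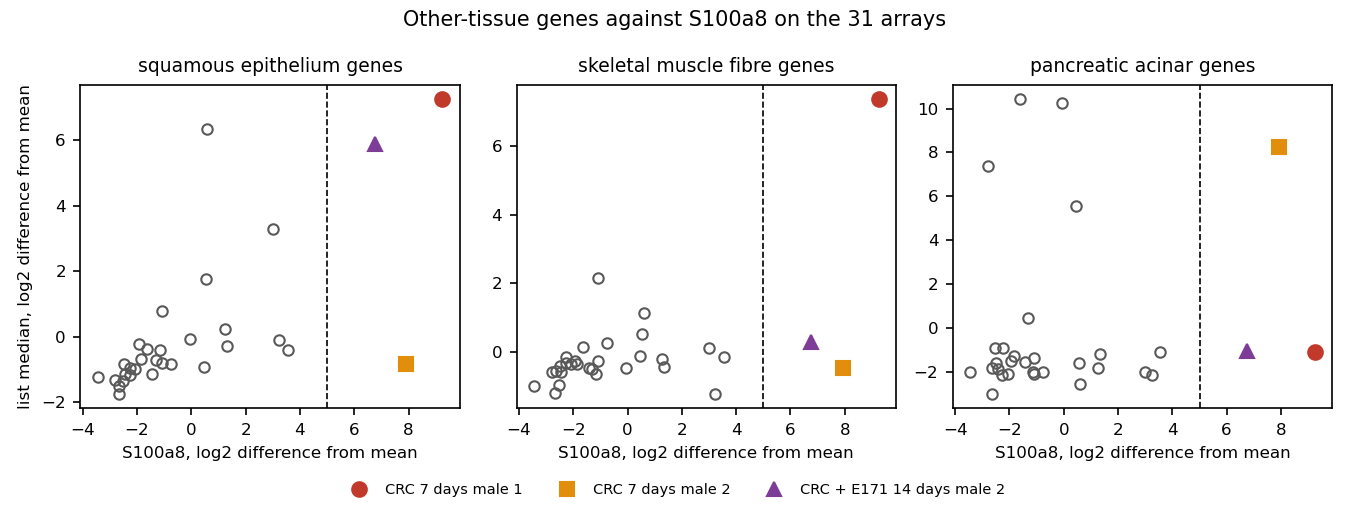
Medians of the squamous epithelium, skeletal muscle and pancreatic acinar lists on each array (log2, centred on the mean of all 31 arrays) against the S100a8 value of that array, with the 3 selected arrays marked. Squamous transcripts were high on 2 selected arrays (7.25 and 5.90), skeletal muscle transcripts on 1 (7.37) and acinar transcripts on 1 (8.25). Of the other arrays, only CRC 21 days female 1, at 6.34, came near for squamous transcripts. For skeletal muscle the other arrays reached at most 2.14. The acinar median was higher on CRC + E171 21 days female 2 and CRC + E171 2 days female 2, at 10.42 and 10.25.

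The levels below are log2 processed signal minus the 75th percentile of the array, with probes of 1 gene averaged. Such levels can be compared between arrays for 1 gene, not between genes. Since S100a8 chose the arrays, all differences between the selected and the other arrays are descriptions without a test, and the counts say only how many genes did or did not overlap. Across 19845 genes, 816 (4.11%) were higher on each selected array than on any other array, and 1133 (5.71%) were lower. Differences in means of at least 2-fold were found for 2217 genes (11.2%) that were higher and 1860 genes (9.37%) that were lower. The median difference over all genes was 0.01.

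Calprotectin and neutrophil granule genes were much higher on the selected arrays, although not all of them. S100a8 had levels of 6.84, 5.52 and 4.36, and the other arrays ranged from -5.85 to 1.14 with a median of -3.77. The difference of means was 8.83 on the log2 scale, or 456-fold, with an SD of 1.24 among the selected arrays and 1.93 among the others. S100a9, its partner chain in calprotectin, had levels of 7.44, 6.13 and 5.89 against a range of -4.10 to 3.04, a 255-fold difference. Lcn2, the siderophore-binding lipocalin of specific granules that injured epithelium makes as well, separated the arrays less evenly. Its levels were 4.77, 5.18 and 0.47 against -4.10 to -1.51 (median -3.50). CRC + E171 14 days male 2 was thus the lowest of the selected arrays for both markers, by a wide margin for Lcn2. The 2 Lcn2 probes differed in height but not in this order, with levels of 3.60, 4.37 and -0.70 for one and 5.94, 5.99 and 1.64 for the other.

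**Figure D2:**
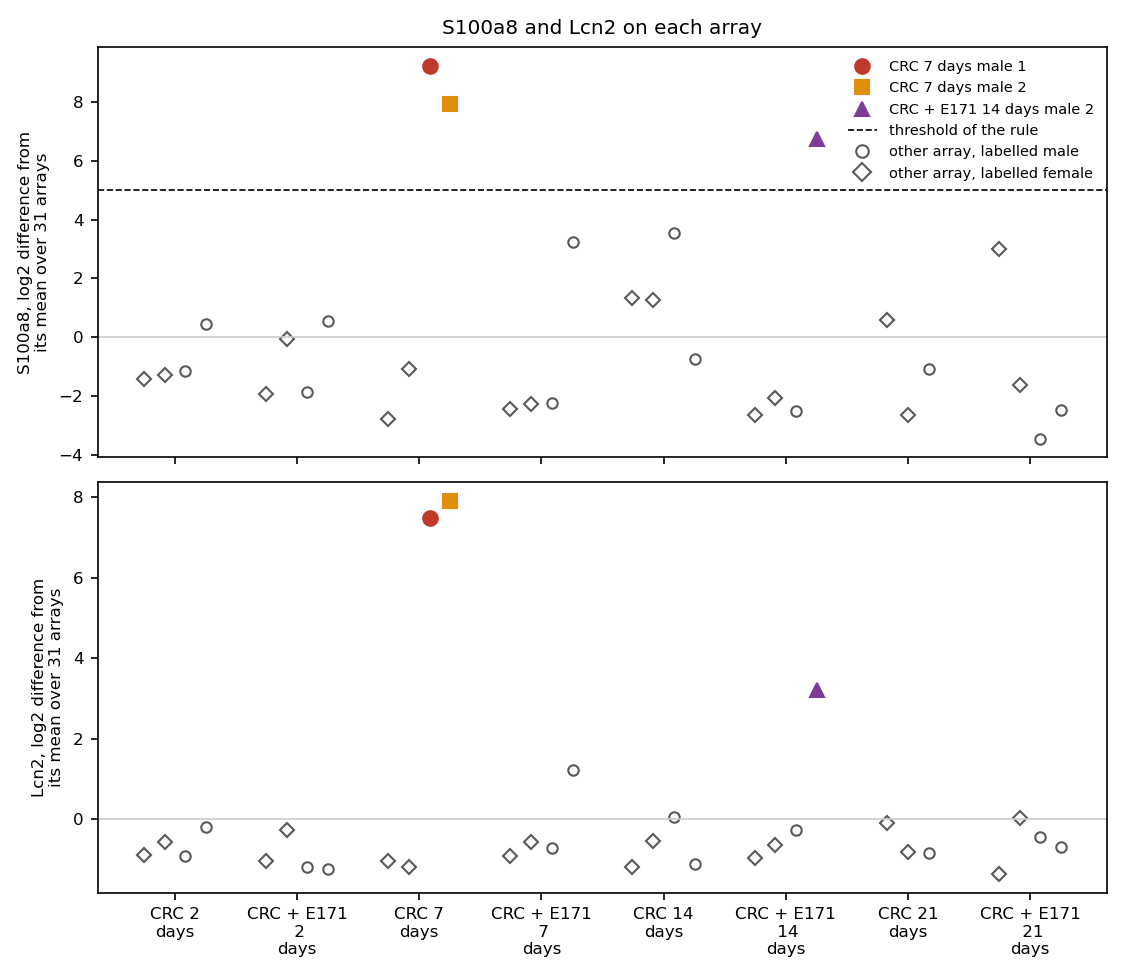
S100a8 and Lcn2 (log2 difference from the mean of 31 arrays) on each array by treatment and day, with the threshold of 5 as a dashed line and the 3 selected arrays filled. The selected arrays sit at 6.76 to 9.25 for S100a8, and the highest of the other arrays at 3.54.

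Of 21 granule genes tested, 10 lay above all other arrays on each selected array, 0 lay below and 11 overlapped, and the median difference over the 21 was 4.78. S100a8 is 1 of the 10 by the choice of arrays, which leaves 9 of the 20 remaining genes. Secondary and tertiary granule products were among the separated genes. Mmp8, the neutrophil collagenase, had levels of 0.60, 2.5 and -1.26 against -4.97 to -2.88, and Mmp9, the gelatinase, levels of -1.35, 1.42 and -0.03 against -6.11 to -2.72. The differences of means were 27.6-fold and 21.1-fold. Stfa2l1, a stefin-type inhibitor of cysteine proteases found in neutrophils, had levels of 0.57, 0.08 and 0.67, and was well above background on only 7 of the 28 other arrays. Retnlg, a resistin-like protein of neutrophils, had 3.46, 3.28 and 1.87 against -3.02 to 0.16. Haptoglobin (Hp) had 4.74, 5.94 and 2.90 against -3.11 to 1.82. The order of the 3 arrays thus differed from gene to gene within this group.

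Genes of primary granules, which are transcribed in bone marrow precursors rather than in mature neutrophils, did not separate the arrays. Mpo, the myeloperoxidase gene, had levels of -3.04, -2.36 and -4.21 and overlapped with the range of -4.71 to -2.88 of the others. Elane, neutrophil elastase, and Ctsg, cathepsin G, each differed by -0.02 in their means. Lactoferrin (Ltf) and the stefin Stfa1 were high on the selected arrays but overlapped. Ltf had 4.17, 1.86 and 5.67, and of the other arrays with squamous transcripts it was at 1.90 on CRC + E171 21 days female 1 and at -3.71 on CRC 21 days female 1. Stfa1 had 6.77, 1.24 and 0.09, and was at 0.31 and 3.12 on these 2 arrays.

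The label of neutrophil-rich arrays was checked with 14 marker genes, of which 13 were tested and Ngp did not pass the filter on dim probes. S100a8 lies above every other array because it chose the arrays. Of the 12 remaining markers, 6 were above every other array on the selected arrays, namely S100a9, Mmp8, Cxcr2, Fpr1, Retnlg and Stfa2l1. The other 6, Mpo, Elane, Ltf, Camp, Csf3r and Trem1, overlapped. Cxcr2, the receptor for Cxcl1, Cxcl2 and Cxcl5, had levels of -0.91, 0.21 and 0.06, and only 11 of the 28 other arrays had it well above background. Fpr1, the receptor for bacterial formyl peptides, had 0.11, 1.71 and -1.25 against -7.98 to -2.80. Csf3r, the receptor for granulocyte colony-stimulating factor, went against the label at 5.35, 5.01 and 5.55 against 5.13 to 6.19. Ly6g and Itgam, which were not among the 14 markers, did not separate the arrays either. Ly6g, the surface protein by which mouse neutrophils are usually sorted, was at 0.46, 2.21 and 2.51 against -3.91 to 4.05. Itgam, the integrin CD11b, was at -0.18, -0.64 and -0.18 against -0.67 to 0.77. Beyond the selecting gene, the name therefore rests on S100a9, granule and chemotactic receptor transcripts and not on Ly6g, Csf3r or Itgam.

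Among 28 receptor and signalling genes of neutrophils, 11 were higher on the selected arrays without overlap, 0 were lower, and the median difference was 1.46. Clec4e and Clec4d, paired C-type lectin receptors for microbial glycolipids, had differences of 6.34 and 5.44. Clec4e had levels of 0.70, 1.73 and -0.93 against -8.51 to -3.20, and Clec4d 2.30, 2.35 and 0.98 against -4.90 to -1.49. Il1r2, the decoy receptor that soaks up interleukin-1, had 0.66, 1.24 and -0.48 against -5.21 to -0.93. The separated genes further held the leukotriene B4 receptor Ltb4r1, the complement C5a receptor C5ar1 and the Mas-related receptors Mrgpra2a and Mrgpra2b, which neutrophils express. The oxidase subunits Ncf1, Ncf4, Cyba and Cybb overlapped, with differences of 0.35 to 1.03.

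Chemokines that attract neutrophils were the next group. Cxcl5 had levels of 4.21, 5.03 and 3.92 against -7.20 to -0.21 (median -4.57), a difference of 8.69 or 413-fold, with an SD of only 0.57 among the selected arrays. Cxcl1 had levels of 3.94, 5.18 and 0.34 against -4.66 to 0.20, a 91.2-fold difference. The lowest selected array therefore cleared the highest other array, CRC 14 days male 1, by little for Cxcl1 and by a wide margin for Cxcl5. Cxcl2 had 0.11, 0.96 and -3.75 and overlapped, since CRC + E171 14 days male 2 fell within the range of the others, and it was well above background on only 6 of those 28 arrays. Of the 14 neutrophil and monocyte chemokines tested, 3 separated (Cxcl5, Cxcl1 and Ccl3), 0 separated in the opposite direction, and the median difference was 2.85. On CRC 7 days male 1 and male 2 the list medians were 3.03 and 3.68 above the mean of the other arrays, and on CRC + E171 14 days male 2 the value was 0.62.

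Monocyte chemokines varied in the same way between the selected arrays. Ccl2 had levels of 3.0, 5.31 and 1.46 against -1.17 to 2.58, and Ccl7 2.23, 3.28 and -0.63 against -2.30 to 1.14. Both were above every other array on the 7-day arrays and within the range on the 14-day array. Ccl20, an epithelial chemokine for Ccr6-bearing cells, had the opposite sign with a difference of -2.46 and overlapped. Ppbp, the platelet basic protein chemokine, had 4.73, -3.40 and 5.00, so that it was high on 2 selected arrays only. Among the other arrays with squamous transcripts it was at 1.14 on CRC + E171 21 days female 1 and at -6.16 on CRC 21 days female 1.

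The promoters of Cxcl1 and Cxcl2 are shown because both hold the same match to the consensus site of NF-kB, the factor that switches on many inflammatory genes. Each line gives the 250 bases before the start of the gene from RefSeq on GRCm38.p6, with the match in capitals. The Cxcl1 stretch is chr5:90890995-90891244 (plus strand) with the match from position -71 relative to the start, and the Cxcl2 stretch is chr5:90903649-90903898 (plus strand) with the match from position -97.
Cxcl1: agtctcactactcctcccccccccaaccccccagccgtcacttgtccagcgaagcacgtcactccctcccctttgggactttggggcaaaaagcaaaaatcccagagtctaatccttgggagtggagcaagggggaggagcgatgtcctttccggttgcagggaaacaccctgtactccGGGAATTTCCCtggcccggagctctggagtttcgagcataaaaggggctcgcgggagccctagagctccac
Cxcl2: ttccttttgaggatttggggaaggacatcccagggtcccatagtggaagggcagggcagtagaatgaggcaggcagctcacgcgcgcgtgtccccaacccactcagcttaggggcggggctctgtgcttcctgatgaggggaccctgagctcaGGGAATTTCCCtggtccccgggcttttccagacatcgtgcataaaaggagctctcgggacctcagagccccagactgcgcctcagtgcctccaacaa
The search covered 300 bases per promoter on both strands for the NF-kB consensus, the C/EBP core TTGCNNAA and the TATA box TATAAA. Of the 15 genes with the highest differences 11 had a promoter in the table, and the NF-kB consensus was found in 2 (Cxcl1 and Chil1), the C/EBP core in 6 and the TATA box in 5. Of the 10 genes with the lowest differences 9 had a promoter in the table, and the numbers were 1, 2 and 4. Over all 27025 promoters the shares were 4.35%, 10.8% and 8.88%. Among genes tested, the NF-kB consensus was in 3 of 9 neutrophil and monocyte chemokine promoters, in 0 of 19 granule gene promoters and in 3 of 18 colonocyte promoters. The chemokines were Cxcl1, Cxcl2 and Ccl20, and Ccl20 had a negative difference, as given above. A match describes the letters in this window and is no evidence of binding.

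Cytokines were higher in part. Of 26 tested genes, 6 separated upward, 0 downward, and the median difference was 1.38. It was 1.13, 2.48 and 0.64 on the 3 arrays, and 0.75 without CRC 7 days male 2 and 2.19 without CRC + E171 14 days male 2. Il1b, the interleukin-1 beta precursor made by neutrophils and monocytes, had levels of 1.26, 2.37 and 1.05 against -5.12 to -1.22, a 32.7-fold difference. Il11, a stromal cytokine of the interleukin-6 family, had 2.45, 4.28 and 0.25 against -3.79 to -0.96, a 37.4-fold difference, and Il33, an alarmin, 0.81, 1.01 and -0.23 against -4.26 to -1.73. Osm (oncostatin M), Il19 and Il17a were the remaining separated genes. Il17a, the cytokine of type 17 lymphocytes, had -3.76, -2.05 and -4.22 against -7.76 to -4.49, and only 14 of the other arrays had it well above background.

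Il6 and Csf3, which drive the acute-phase response and granulocyte output, showed the difference between the 7-day and the 14-day array most clearly. Il6 had levels of 2.10, 2.70 and -3.69, and Csf3 -0.48, 1.37 and -4.74. On the 14-day array both lay within the range of the other arrays, which was -8.59 to -3.54 and -9.42 to -3.64. Several further cytokines of inflamed colon overlapped. Tnf had -1.96, -1.12 and -1.89 against -3.79 to -0.82, Il22 had -3.83, -1.23 and -4.56 against -5.47 to -3.01, and interferon gamma (Ifng) -5.26, -2.08 and -5.09 against -7.42 to -0.16. Il18, an epithelial cytokine, was lower on average by 1.49 and overlapped.

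Targets of interleukin-17 and NF-kB separated in 6 of 19 genes, with 0 lower and a median difference of 0.84. Socs3, the feedback inhibitor of Stat3 signalling, had levels of 4.80, 5.11 and 2.97 against 0.21 to 2.59, a 9.54-fold difference. Cebpb, a transcription factor of the acute phase, had 4.07, 4.17 and 1.98 against 0.42 to 1.83. Ptx3, a secreted pentraxin, had 0.65, 0.83 and -3.39 against -7.96 to -4.93 and was well above background on 9 of the other arrays. The NF-kB subunits themselves, Nfkb1, Nfkb2 and Relb, overlapped with differences of 0.12, 0.39 and -0.24.

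Acute-phase and antimicrobial genes of the epithelium split into genes that were higher and genes that were lower. Saa3, a serum amyloid A made outside the liver, had levels of 7.19, 6.62 and 4.15 against -3.87 to 3.86, a 186-fold difference of means, and the highest other array was CRC + E171 14 days female 1. The closely related Saa1 and Saa2, which colonocytes express, were lower without overlap. Saa1 had 4.73, 4.89 and 3.23 against 5.70 to 7.91, and Saa2 3.30, 2.67 and 2.70 against 5.59 to 7.90, and the means were 4.87-fold and 12.6-fold lower. Probes of such close relatives can take up each other's transcripts, so the values of Saa1 and Saa2 are uncertain. Pigr, which carries IgA across the epithelium, and Zg16, a lectin of mucus, were the remaining separated genes on the lower side. Chil1, a chitinase-like protein, and Lbp, the lipopolysaccharide-binding protein, were on the higher side. Of 23 tested genes 3 were higher, 4 were lower and 16 overlapped. The median difference was 0.20, but -1.44, 0.60 and 0.25 on the 3 arrays, and it was -0.46 without CRC 7 days male 2 and -0.25 without CRC + E171 14 days male 2.

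**Figure D3:**
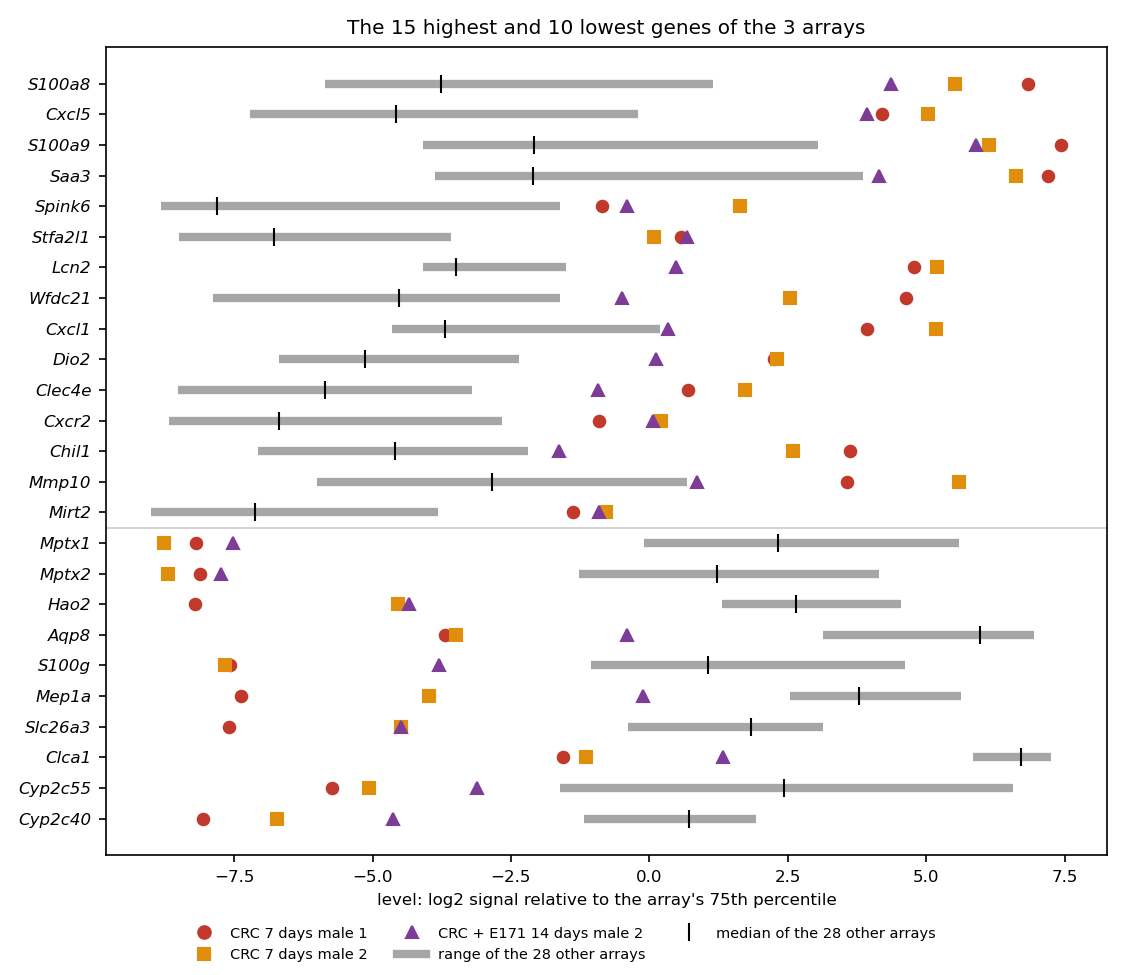
Levels (log2 processed signal minus the 75th percentile of the array) of the 15 genes with the highest and the 10 with the lowest difference of means between the 3 selected arrays and the 28 others, among genes without overlap. Each point is 1 array, and the 25 genes are a description of arrays chosen by S100a8.

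Among the 15 genes with the highest differences were some outside the neutrophil and chemokine lists. Spink6, a Kazal-type inhibitor of serine proteases, had levels of -0.86, 1.63 and -0.41 against -8.81 to -1.61 and was well above background on 6 of the others. Wfdc21, of the whey acidic protein family, had 4.62, 2.53 and -0.50 against -7.88 to -1.62. Dio2, the deiodinase that converts thyroxine to its active form, had 2.25, 2.31 and 0.12 against -6.69 to -2.36, an 82.6-fold difference. Mirt2, a long non-coding RNA, was the most even of the 15, at -1.37, -0.78 and -0.91 against -8.99 to -3.81, with an SD of 0.31 among the selected arrays. It was well above background on 7 of the 28 others.

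Endothelial genes of adhesion and activation separated in 6 of 16 cases with 0 lower, and the median difference was 1.10. It was 0.85, 2.09 and 1.10 on the 3 arrays, and 1.67 without CRC 7 days male 1. Selp, P-selectin, had levels of -0.51, 1.31 and -0.68 against -5.94 to -2.95, an 18.9-fold difference. Ackr1, the chemokine receptor of venules that presents chemokines to leukocytes, had 2.15, 1.88 and 0.42 against -1.29 to -0.31. Lrg1, Cdh5, Plvap and Pecam1 were the other separated genes. Icam1 and Vcam1, the ligands of leukocyte integrins, overlapped at 0.03, 1.51 and -0.20 against -2.56 to 0.98 and at -1.37, 1.13 and 0.39 against -1.82 to 0.16.

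Macrophage genes separated in 3 of 22 cases (Thbs1, Msr1 and Mrc1) with 0 lower. Mrc1, the mannose receptor, had 2.30, 2.5 and 1.68 against -0.24 to 1.61. Adgre1, which encodes F4/80, and Csf1r differed by 0.28 and 0.31 and overlapped. Cx3cr1, a receptor of resident intestinal macrophages, had -2.97, -0.06 and -0.02 against -1.16 to 1.08, so that it was below all others only on CRC 7 days male 1. The median difference of the list was 1.03.

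Lymphocyte genes did not separate as a group, and here the selected arrays differed from each other. Over 14 T cell genes the median difference from the others was -1.02, 1.32 and -0.85, and over 15 B and plasma cell genes it was -2.65, 1.18 and -1.09. On CRC 7 days male 2 all 14 T cell genes and 13 of 15 B cell genes were above the median of the other arrays, against 2 and 2 on CRC 7 days male 1 and 2 and 1 on CRC + E171 14 days male 2. Among the B and plasma cell genes 1 was lower and 1 higher without overlap. Tnfrsf17, the survival receptor of plasma cells, was the lower one at -5.85, -4.24 and -4.46 against -3.98 to -1.36, and Sdc1, a syndecan that epithelium carries as well, the higher one at 1.40, 0.98 and 1.24 against -0.57 to 0.51. Of 13 lymphocyte chemokines 0 were higher and 1 was lower without overlap. This was Ccl28, which brings IgA plasma cells to mucosae, at -4.10, -2.58 and -2.18 against -0.16 to 1.83. MHC class II genes had a median difference of -0.70 (-1.46, 0.12 and -1.33 on the 3 arrays, and -1.31 without CRC 7 days male 2) and 0 of 10 separated.

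Interferon-stimulated genes were lower on the selected arrays in most cases. Of 22 genes, 3 were lower without overlap, 0 were higher, and 18 were lower than the mean of the others on all 3 arrays, as were 4941 of all 19845 genes (24.9%). The median difference was -1.30. Irf7, the regulator of type I interferon, had levels of 0.51, 1.05 and 1.74 against 1.98 to 4.56, and Oas1a, an oligoadenylate synthetase, 2.09, 3.37 and 2.97 against 4.38 to 5.88. Oasl1 was the third separated gene. Gbp2, Gbp3 and Gbp5, which interferon gamma induces, overlapped with differences of -0.44, -0.35 and 0.24.

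Genes of matrix-degrading enzymes were higher in part. Of 19 metallopeptidases and inhibitors, 9 separated upward, 0 downward and 10 overlapped, with a median difference of 2.51. Against the mean of the others, 16 were higher and 1 was lower on all 3 arrays. Over all genes tested, 24.4% were higher and 24.9% lower on all 3. Mmp10, stromelysin 2, had levels of 3.57, 5.59 and 0.87 against -6.01 to 0.69, a 71.4-fold difference. Adamts4, an aggrecanase, had -0.69, 0.43 and -2.35 against -7.47 to -3.08. Mmp3 and Mmp13, stromelysin 1 and collagenase 3, were above all others only on the 7-day arrays, with 4.06, 5.97 and 0.84 against -4.12 to 2.54 and with 2.88, 5.00 and -1.18 against -3.66 to -1.04. Timp1, the inhibitor of these enzymes, followed the same order at 4.94, 4.98 and 2.17 against -1.39 to 2.94.

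Fibroblast and matrix genes were the most even group over the selected arrays. The medians over 26 genes were 1.60, 1.62 and 1.39 above the other arrays, and 14 separated upward and 0 downward. Lox, lysyl oxidase, which cross-links collagen, had levels of 0.48, 1.55 and -0.08 against -5.05 to -1.38, a 16.8-fold difference. Inhba, the activin A chain, had 1.18, 2.76 and 1.13 against -3.10 to -0.03, and Il1r1, the interleukin-1 receptor, 2.03, 3.13 and 1.51 against -0.76 to 0.53. The basement membrane collagens Col4a1 and Col4a2 and the fibrillar collagens Col1a1, Col1a2, Col3a1, Col5a1 and Col5a2 were all separated. Col3a1 had 2.39, 2.21 and 2.35 against -0.50 to 1.68. The probes of Col1a1 disagreed, with differences of -0.38 to 2.40. Postn and Fap, further fibroblast genes, did not separate, with differences of 0.00 and 0.23.

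Complement and coagulation genes were higher in part. Of 18 complement genes 6 were higher without overlap and 0 lower, with a median difference of 1.14. C3, the central component, had 5.39, 6.24 and 5.80 against 2.99 to 5.19, and Serping1, the inhibitor of C1, 5.23, 5.13 and 4.26 against 2.93 to 4.09. Of 18 coagulation genes 4 were higher and 0 lower. Plat, tissue plasminogen activator, had 1.38, 1.58 and 1.14 against -3.44 to 0.07.

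Mptx1 and Mptx2, mucosal pentraxins of the large intestine, were not well above background on any selected array and well above it on all 28 others. Mptx1 had levels of -8.19, -8.77 and -7.53 against -0.10 to 5.58 (median 2.33), and it was at least 354-fold lower. Mptx2 was at least 186-fold lower, with -8.11, -8.69 and -7.74 against -1.27 to 4.15. These bounds set the mean of the others against the lowest signal well above background on the selected arrays.

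Surface colonocyte genes were lower, in 13 of 25 cases without overlap and in 0 cases higher, with a median difference of -3.26. Aqp8, a water channel of the surface epithelium, had levels of -3.69, -3.50 and -0.40 against 3.13 to 6.95, and was 323-fold lower in the mean. Slc26a3, the chloride and bicarbonate exchanger, had -7.59, -4.49 and -4.49 against -0.39 to 3.13. Car1, a carbonic anhydrase, shows how unequal the lower levels were, with -3.78, -1.01 and 2.42 against 3.17 to 7.03. Slc5a8, the transporter of short-chain fatty acids, had -1.72, -2.75 and -2.71 against 1.45 to 3.50. Hao2, a hydroxyacid oxidase, and Mep1a, a brush border protease, were among the 10 lowest genes with -8.21, -4.54 and -4.34 against 1.31 to 4.54 and with -7.38, -3.98 and -0.12 against 2.55 to 5.62. Scnn1b, a subunit of the sodium channel, did not separate.

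Goblet cell genes were lower without overlap in 14 of 20 cases and higher in 0, and the median difference was -4.08. Clca1, a secreted mucus protein, had levels of -1.56, -1.15 and 1.32 against 5.85 to 7.26, a 146-fold difference. Muc2, the gel-forming mucin, had -2.76, 0.95 and -0.46 against 2.44 to 6.31, a 24.2-fold difference. Zg16 was close to the others on CRC 7 days male 2, at 0.02, 6.24 and 2.81 against 6.87 to 8.40. Atoh1 and Spdef, the transcription factors that specify goblet cells, were lower with the secreted products, at -8.18, -2.21 and -2.06 against 0.91 to 2.75 and at -1.47, 2.07 and -0.17 against 2.30 to 5.54. On CRC 7 days male 1 the list median was -5.33 below the others, against -2.40 and -3.49 on the remaining pair.

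Genes shared by all epithelial cells were lower by less. Of 20 junction and pan-epithelial genes 7 were lower without overlap and 0 higher, with a median difference of -1.75. Epcam, the epithelial adhesion molecule, had levels of 0.99, 2.78 and 3.93 against 3.95 to 5.13, so that CRC + E171 14 days male 2 was just below the lowest other array. The keratin Krt8 had 3.20, 5.64 and 6.78 against 6.48 to 7.55 and was within the range on that array. Epithelial transcripts common to all crypt cells were thus nearest to the others on CRC + E171 14 days male 2, whose Mptx1, Aqp8 and Clca1 levels were below every other array all the same.

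Crypt base genes were mostly not separated, and cell cycle genes were in range or slightly higher. Of 19 stem cell and Wnt target genes 2 were higher (Cd44 and Smoc2), 1 was lower (Cdx1), and the median difference was -0.15. It was -0.55, -0.50 and 0.66 on the 3 arrays, and 0.19 without CRC 7 days male 2. Lgr5, the marker of crypt base stem cells, had -4.22, -5.46 and -2.98 against -7.03 to -2.22. Of 20 cell cycle genes, 1 was higher without overlap (Rrm2, a subunit of ribonucleotide reductase) and 0 lower. Mki67 had 2.46, 2.74 and 3.69 against 2.06 to 3.62, so that the 14-day array was the highest of all 31. The medians of the cell cycle list were 0.10, 0.12 and 1.17.

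Xenobiotic and steroid enzymes of the colon formed the longest list of lower genes, with 16 of 31 lower without overlap, 0 higher and a median difference of -3.09. Ces2c, a carboxylesterase, had levels of -3.69, -1.97 and -0.68 against 2.86 to 5.81, and was 64.6-fold lower. Cyp4f14, which hydroxylates leukotrienes and fatty acids, had -5.99, -4.23 and -1.55 against 0.86 to 4.36. Cyp2c55 and Cyp2c40, cytochromes P450 of the large intestine, were among the 10 lowest genes, at -5.73, -5.07 and -3.11 against -1.61 to 6.56 and at -8.07, -6.73 and -4.64 against -1.19 to 1.92. Genes of the Cyp2c, Ces2 and Ugt2b families are similar in sequence, and their probes may share signal. Hpgd, which breaks down prostaglandins, was lower as well, at 1.43, -2.11 and -0.31 against 1.55 to 3.56, while Ptges, a prostaglandin E synthase, was higher at 1.70, 2.08 and 0.41 against -0.91 to 0.20.

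**Figure D4:**
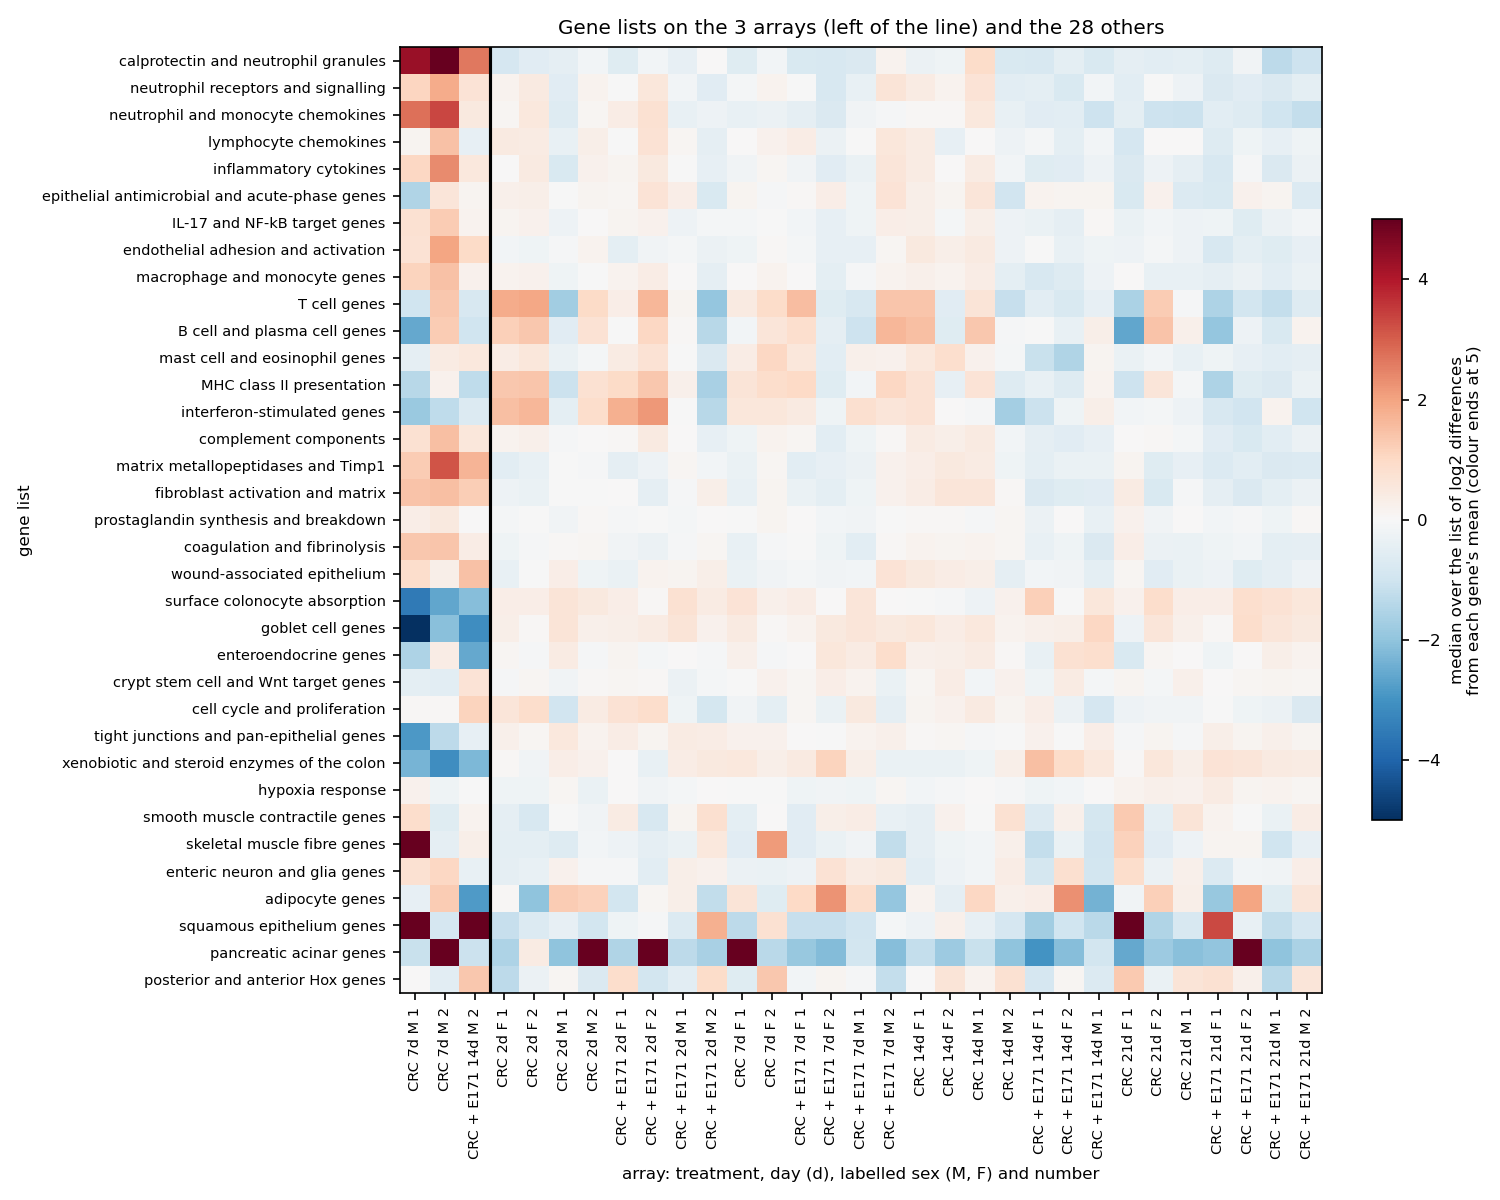
Median of each gene list (log2 difference from the mean of each gene over 31 arrays, as colour) on each array, with the 3 selected arrays left of the line. Granule, metallopeptidase and fibroblast lists are above 0 and colonocyte, goblet cell and xenobiotic lists below 0 on all 3, whereas squamous, skeletal muscle, acinar, T cell and B cell lists differ between them.

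The selected arrays were also compared with each other. Genes at least 2-fold above every other array numbered 1046, 573 and 247, and genes at least 2-fold below every other array 1006, 732 and 327. All 3 arrays shared 68 of the former and 182 of the latter. On the lower side, the 182 shared genes were thus a larger part of each array's genes than the 68 on the higher side. Genes found on 1 array alone numbered 718, 306 and 78 above and 484, 269 and 42 below. Across genes, the difference from the other arrays correlated between CRC 7 days male 1 and male 2 with a Pearson r of 0.46, between CRC 7 days male 1 and CRC + E171 14 days male 2 with 0.63, and between CRC 7 days male 2 and CRC + E171 14 days male 2 with 0.45. These are descriptions over genes, which are not independent, and the more alike pair is the one that shares squamous transcripts. All 3 share the same baseline of other arrays.

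Of the arrays just outside the threshold, CRC 14 days male 1 and CRC + E171 7 days male 2 held part of the inflammatory transcripts. CRC + E171 21 days female 1, which carried squamous transcripts, did so for few genes. Its centred cytokine median of -0.79 was the lowest of the other arrays. Its granule median was -0.63, against a median of -0.52 over the other arrays. Epithelial levels on these arrays were mixed. In the order CRC 14 days male 1, CRC + E171 7 days male 2 and CRC + E171 21 days female 1, S100a9 had levels of 3.04, 2.93 and 1.18, and Cxcl5 -0.21, -0.91 and -2.02. Lcn2 had -2.69, -1.51 and -4.10, the last being the lowest of all 28 other arrays. Aqp8 had 5.32, 5.37 and 6.5, Clca1 6.54, 7.04 and 6.67, and Mptx1 2.35, 2.30 and 1.95. The medians of the other arrays were 5.97 for Aqp8, 6.72 for Clca1 and 2.33 for Mptx1. S100g, a calcium-binding protein and one of the 10 lowest genes, was near the bottom of the other arrays on the first and the second of these at -1.0 and -1.06, and high on the third at 3.77. The centred colonocyte median was -0.25 on CRC 14 days male 1, the lowest of the other arrays, and 0.01 and 0.34 on the next arrays. The centred xenobiotic medians were -0.22, -0.32 and 0.68, against a median of 0.32 over the other arrays.

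Because the selected arrays were all labelled male and taken at 7 or 14 days, each was set against arrays of its own treatment and day. The 2 CRC 7 days males minus the 2 CRC 7 days females gave differences of 10.53 for S100a8, 8.83 for Lcn2, 9.48 for Cxcl5, -9.94 for Aqp8 and -4.36 for Muc2. CRC + E171 14 days male 2 minus the 3 remaining mice of its group gave 9.18, 3.83, 9.36, -5.90 and -5.12 for the same genes. Granule medians differed by 5.40 and 3.63, colonocyte medians by -3.63 and -2.72, and metallopeptidase medians by 2.59 and 2.08. At 7 days sex and membership cannot be told apart within the CRC group. On its own slide, each selected array could be set against a female of the same group, and S100a8 differed by 12.04, 9.01 and 8.83 and the fibroblast median by 1.86, 1.41 and 1.63. The S100a8 values are fixed by the choice of arrays. Lcn2 differed by 8.55, 9.11 and 3.84 and Aqp8 by -10.09, -9.79 and -3.54, so that for these genes CRC + E171 14 days male 2 differed less from its slide partner than the 7-day arrays from theirs.

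The labelled comparison of the study, CRC + E171 against CRC on the same day, draws on these arrays, 2 of them among the 4 CRC mice at 7 days and 1 among the 4 CRC + E171 mice at 14 days. With limma over all 31 arrays, 0 genes passed an adjusted p of 0.05 at either day, while 3329 genes at 7 days and 1584 at 14 days had an unadjusted p below 0.05. At 7 days 1376 genes (6.93%) were at least 1.5-fold higher with an unadjusted p below 0.05, and 1087 (5.48%) were lower. S100a8 differed by -4.25 (SE 2.21, limma adjusted p = 0.328) and Lcn2 by -3.53 (SE 1.38, limma adjusted p = 0.224). Leaving out 1 array moved S100a8 between -6.29 (without CRC 7 days female 1) and -2.28 (without CRC 7 days male 1), and it was -2.72 without CRC 7 days male 2. Lcn2 moved between -5.03 and -1.99, the latter without CRC 7 days male 2, and it was -2.13 without male 1. It passed a limma adjusted p of 0.05 without CRC 7 days female 1 (-4.98, adjusted p = 0.0321) and without female 2 (-5.03, adjusted p = 0.0445). Of the gene lists described above, 11 of 21 granule genes, 11 fibroblast genes and 9 metallopeptidases were among the lower calls, and 13 colonocyte, 13 goblet cell and 17 xenobiotic genes among the higher ones. Without CRC 7 days male 1 alone the 7-day calls numbered 532 higher and 391 lower, and without CRC 7 days male 2 alone 848 higher genes were called. Leaving out CRC 7 days female 1 or female 2 gave 720 and 393 higher genes and 477 and 148 lower genes at a limma adjusted p below 0.05.

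When the 3 selected arrays were left out, the 7-day calls numbered 244 higher (1.23%) and 283 lower (1.43%). Of the higher calls 122 were shared, which is 122 of 1376 and of 244, and of the lower calls 110, which is 110 of 1087 and of 283. S100a8 then differed by 1.01, Lcn2 by 0.88, Cxcl5 by 0.42 instead of -4.32, and Clca1 by 0.00 instead of 4.09. Of the lists, 1 granule gene was called lower and 1 higher, and of the fibroblast, goblet cell and xenobiotic lists 0 genes were called. Of the colonocyte genes 2 were called lower. Skeletal muscle genes were called lower in 8 of 12 cases, against 10 with all arrays. Arrays left out because of a measured value no longer form the design of the study, CRC at 7 days is then 2 females, and the change in S100a8 itself follows from the choice.

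At 14 days the same step acted in the opposite direction on the counts. With all arrays 643 genes (3.24%) were called higher and 618 (3.11%) lower, and without the selected arrays 1306 (6.58%) and 1490 (7.51%), of which 504 and 517 were called both times. With normexp background correction the calls on all arrays were mostly higher ones, as given below. Without the selected arrays an adjusted p below 0.05 was reached by 232 higher and 166 lower genes (limma). That fit also left out CRC 7 days male 1 and male 2. They are in neither 14-day group but enter the shared estimate of the spread. With 1 array of the 14-day groups left out, CRC + E171 14 days male 2 included, 0 higher and at most 3 lower genes reached it. Xenobiotic enzymes were called higher in 19 of 31 cases instead of 6, and fibroblast genes lower in 18 of 26 instead of 2. Ces2e differed by 2.31 instead of 0.79, and Lox by -2.42 instead of -1.29. S100a8 differed by -3.76 instead of -1.47, which follows from leaving out an array chosen by that gene. It was between -3.76 and -0.62 with 1 array left out, the latter without CRC + E171 14 days female 1. Without CRC + E171 14 days male 2 alone, 1185 genes were called lower, without female 1 of that group alone 303 genes were called lower, and without female 2 alone 323 genes were called higher. The difference between the 7-day and the 14-day effect of E171, tested as an interaction on all arrays, passed for 0 genes, with 1793 at an unadjusted p below 0.05, and it was -2.78 for S100a8 (SE 3.12, limma adjusted p = 0.753).

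**Figure D5:**
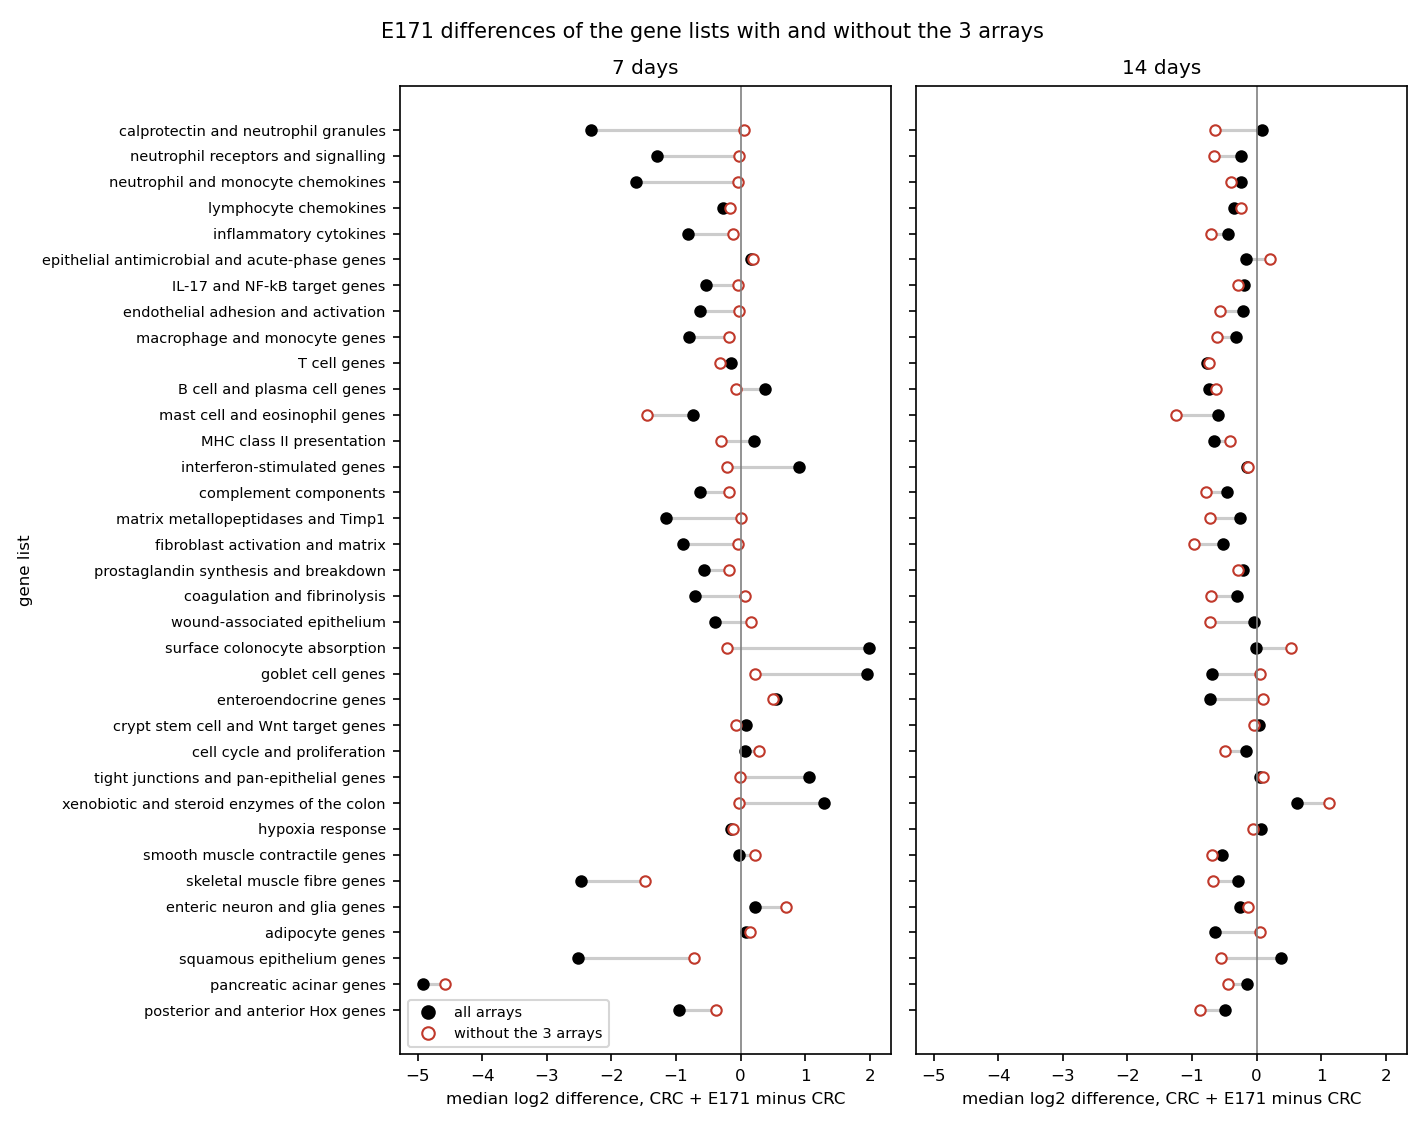
Median difference between CRC + E171 and CRC (log2) over each gene list at 7 and 14 days, fitted with all 31 arrays (filled) and without the 3 selected arrays (open). At 7 days the granule median goes from -2.32 to 0.05 and the goblet cell median from 1.96 to 0.22.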

How the data were processed

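The members and the gene lists were chosen with earlier results of these data known. The authors extracted RNA with a RIN above 6 and hybridised it to one-colour arrays, of which 31 were analysed here. The deposited scanner files hold the processed intensity of each spot, background-subtracted by the Agilent software, and the authors' table holds log2 values, used only as an alternative, after their filters and imputation; the between-array normalization of that table is not given in the sources used here. The columns of that table had medians of 9.43 to 9.67, and 31 of 31 were most like their own array.

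From the intensities, log2 values minus the 75th percentile of each array (signal 1717 to 6536) were taken without control spots. Of 56605 probes, 42787 passed a filter (in at least 1 treatment and day group, well above background on 60% of its arrays with a mean log2 of at least 4), and 34410 matched 1 RefSeq gene (27569 by accession, 6501 by symbol, 340 by synonym), giving 19845 genes. In 57 genes some array lacked a value, and it was left out. The number of arrays limits the precision.

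Named genes were S100a8, Lcn2, the 15 highest and 10 lowest differences without overlap, and up to 6 genes per list over 35 lists. Other genes of the lists were named after their values were seen. Labelled contrasts were fitted with limma 3.58.1 (R 4.3.3; statmod 1.5.0) on 8 treatment and day groups over all arrays, with Benjamini-Hochberg adjustment over all genes, and the scripts were tested on simulated data. Other steps used Python 3.11.15, numpy 2.4.6, pandas 2.3.3, scipy 1.17.1 and matplotlib 3.10.9. Alternatives were background correction by normexp, no dim-probe filter, the authors' log2 values, slide blocks, scan day, each array left out, and other reference arrays. Arrays that share a labelled sex and number shared only that number (correlations of deviations -0.18 to 0.37). A few genes of the lists are not reported here by name.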

Additional observations from a re-analysis of the deposited data

Results flagged for a closer look

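The spread within the 2 groups that hold selected arrays was examined for S100a8, Lcn2 and the 35 gene lists, 74 examinations in all, by the gap of the outermost of 4 arrays divided by the range of the group. A ratio above 0.829 marks an array as standing apart, and chance alone marks about 1 in 20 groups. That rate does not hold for an array chosen by its S100a8 value, so all values below are descriptions. With 2 selected arrays of 4, the CRC 7 days group could hardly show the selected arrays this way. CRC + E171 14 days male 2 stood apart for 7 values. S100a8 was 6.76 against -2.66 to -2.07 in the rest of its group, Lcn2 3.20 against -0.98 to -0.27, and the granule median 2.63 against -0.80 to -0.50. The metallopeptidase median was 1.69 against -0.49 to -0.32, the fibroblast median 1.24 against -0.72 to -0.55, the complement median 0.57 against -0.58 to -0.40, and the squamous median 5.90 against -1.74 to -0.98. In the CRC 7 days group, where 2 of 4 arrays were selected, 1 value stood apart. It was the lymphocyte chemokine median of CRC 7 days male 2, at 1.46 against 0.01 to 0.22.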

How the results depend on the processing

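The selected arrays were the same at thresholds of 4 and 6. Over the alternatives, 120 of 130 gene differences and 435 of 455 list medians moved by less than the spread between arrays. The sign differed from that reported in 32 of the 455, over 15 lists, 10 of them with CRC 7 days male 2 alone. In 1 of the 32, the squamous genes at -0.29 on that array, the reported median was larger than the spread between arrays. The acinar median was -0.87 without CRC 7 days male 2, and on that array alone the skeletal muscle median was -0.11 and the B cell median 1.18. Fewer arrays leave fewer overlaps. Genes higher and lower without overlap numbered 2315 and 2527 against the same treatment and day, 1733 and 1987 against the other males, and 2784 and 3940 with CRC 7 days male 2 alone, where 2839 were at least 2-fold lower. Leaving out each selected array gave 1097 to 1418 higher and 1501 to 1880 lower genes without overlap. Without CRC 7 days male 2 there were 1356 higher genes, and without CRC + E171 14 days male 2 there were 1418 higher and 1880 lower genes.

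For the labelled E171 contrast, normexp gave 1024 higher and 216 lower genes at 14 days, no filter on dim probes gave 1 higher gene at adjusted p below 0.05 at 7 days, and the authors' log2 values gave 993 lower genes at 14 days and 2 lower genes at adjusted p below 0.05. The cause was not tested. Without the selected arrays there were 244 higher and 283 lower genes at 7 days (767 at unadjusted p below 0.05), with S100a8 at 1.01 and Lcn2 at 0.88, and 1306 and 1490 at 14 days (3916 at unadjusted p below 0.05), 232 and 166 at adjusted p below 0.05. Leaving out each array of the groups compared gave at 7 days 532 to 2015 higher, 391 to 1973 lower and 1374 to 4937 genes at unadjusted p below 0.05. At adjusted p below 0.05 it gave 0 to 720 higher and 0 to 477 lower genes, with 720 and 477 without CRC 7 days female 1 and 393 and 148 without CRC 7 days female 2. Without CRC 7 days male 1 there were 532 higher and 391 lower genes, and without CRC 7 days male 2 there were 848 higher. At 14 days the ranges were 323 to 958 higher, 303 to 1185 lower, 1052 to 2791 at unadjusted p below 0.05 and 0 to 3 lower at adjusted p below 0.05. The lowest and highest came without CRC + E171 14 days female 1 (303 lower), female 2 (323 higher) and male 2 (1185 lower). The replicate block on labelled sex and number changed no call at adjusted p below 0.05 and gave 1402 higher and 1146 lower genes at 7 days and 719 and 807 at 14 days. Slide as a random block gave 1360, 1079, 637 and 616. Signal near background limits the folds of genes that few of the other arrays measured.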

Other observations

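Several gene groups that are often discussed in injured colon did not set the selected arrays apart. Of 16 hypoxia response genes 1 was higher without overlap and 0 lower, and the median difference was 0.03 (0.20, -0.18 and -0.02 on the 3 arrays). The gene was Hmox1, haem oxygenase 1, at 2.66, 2.11 and 1.75 against -1.19 to 0.60. Of 13 mast cell and eosinophil genes, 12 smooth muscle genes and 14 enteric neuron and glia genes, 0 separated in either direction, with median differences of 0.12, 0.14 and 0.78. The selected arrays differed among themselves in each, in the order CRC 7 days male 1, male 2 and CRC + E171 14 days male 2. The mast cell medians were -0.48, 0.45 and 0.55, the smooth muscle medians 0.88, -0.59 and 0.21, and the enteric medians 0.82, 1.12 and -0.33. Leaving out 1 selected array gave -0.23 to 0.56, -0.14 to 0.56 and 0.34 to 0.81. Of 14 enteroendocrine genes only Neurod1 was lower without overlap. The median difference was -1.30 overall and -1.66, 0.16 and -2.69 on the 3 arrays, so that CRC 7 days male 2 was not lower, and without that array it was -2.22. Of 10 adipocyte genes only Pck1 was lower, at -5.88, -1.40 and -5.01 against 1.01 to 3.65. Colonic epithelium also expresses Pck1, the gluconeogenic enzyme, and the adipocyte genes Adipoq and Cidec overlapped.

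Of 23 genes reported for wound-associated epithelium, 3 were higher without overlap (Ereg, Il33 and Plaur) and 2 lower (Gsdmc2 and Edn2). Ereg, an EGF receptor ligand, had levels of 2.67, 3.88 and 0.63 against -2.41 to 0.50. Ly6a, or Sca-1, had 5.37, 5.01 and 5.07 against 2.27 to 6.74. Ly6d and Krt17 were high on CRC 7 days male 1 and CRC + E171 14 days male 2, the arrays with squamous transcripts. Hoxa11 was the only Hox gene of 12 without overlap. Among prostaglandin genes 3 of 18 were higher and 1 lower without overlap.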
